A study of Mus musculus with 899 samples.

Results

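The miRNA miR-203-3p and miR-205-5p were followed in mouse plasma. They were taken by name, as the rows mmu-miR-203-3p and mmu-miR-205-5p, and are 2 of the 1915 mature miRNA listed. Both were among the 483 miRNA with enough reads to be tested. The study asked how circulating miRNA changed after a single whole-thorax X-ray exposure, and counted miRNA reads in 899 plasma samples of 196 mice. Irradiated mice were compared with sham-irradiated mice of their own strain at the same time. The strains were C3Hf/Sed/Kam (C3H, 64 irradiated and 32 sham mice, 402 samples) and C57Bl/6 (68 irradiated and 32 sham mice, 497 samples), both gnotobiotic young adults of both sexes. Plasma was taken before irradiation (PT), at day 2 (D2) or day 5 (D5), and at monthly intervals, up to month 4 (M4) in C3H and month 6 (M6) in C57Bl/6. The dose was set for each strain from its own lethality curve, so strain and dose cannot be told apart. The paper gives a younger age range for males than for females at irradiation, so sex and age cannot be told apart either. Live mice were bled from behind the eye under isoflurane and terminal bleeds came from the heart, and the labels do not say which samples were terminal. Each strain carried 2 codes in its sample titles, G2 and G4 in C3H and G1 and G3 in C57Bl/6, with 48 mice of each code sampled at PT. Only mice of G1 and G2 were followed beyond month 1, and the labels do not say what the codes stand for.

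Both miRNA are known from stratified epithelia such as the epidermis. There miR-203 accumulates as keratinocytes leave the basal layer and restrains p63, a transcription factor of epithelial stem cells, whereas miR-205 is abundant in basal cells and sustains growth signalling. An animal miRNA silences its target mRNA mainly by pairing through its seed, a short stretch near the 5′ end. In plasma, miRNA are carried in vesicles or bound to proteins after they leave cells.

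The mature sequences are shown because the seed is the part through which each miRNA recognises its targets, and because the opposite strand of each hairpin shows which strand reached plasma. They are RefSeq sequences of build GRCm38.p6, written 5′ to 3′, with the seed (bases 2 to 8) in capitals.
miR-203-3p: gUGAAAUGuuuaggaccacuag
miR-203-5p: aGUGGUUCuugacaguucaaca
miR-205-5p: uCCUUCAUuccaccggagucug
miR-205-3p: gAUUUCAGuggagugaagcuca
The miR-203-3p sequence lies on the plus strand at chr12:112130927-112130948, in the exon of Mir203, and the annotation places no other gene over Mir203. The miR-205-5p sequence lies on the minus strand at chr1:193507503-193507524, in Mir205, which sits inside an exon of the lincRNA gene 4631405K08Rik on the same strand. The seeds of miR-203-3p and miR-205-5p differ, and neither was shared by any other RefSeq mouse mature miRNA (0 others for each). The nearest of 1678 other mature sequences lay 6 edits from miR-203-3p (miR-203b-3p) and 7 edits from miR-205-5p (miR-7674-3p), so reads of these miRNA are distinct in sequence from those of other RefSeq miRNA. A second miRNA, miR-203b-5p, is read from the opposite genomic strand of the miR-203-3p site, and its sequence is the reverse complement of part of miR-203-3p. Neither strand of miR-203b was listed in the table, and it was not analysed here.

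Both miRNA were detected in every plasma sample. For miR-203-3p, a sample held between 101 and 93606 reads (median 1722), and its level lay between 7.86 and 13.67 (median 10.16) in log2 CPM, the base-2 logarithm of the reads scaled to a common library total. For miR-205-5p, the reads ranged from 835 to 232779 with a median of 11757, and its level ranged from 11.22 to 15.53 log2 CPM with a median of 12.96. By mean level miR-205-5p ranked 18 and miR-203-3p ranked 57 of the 483 miRNA tested, and in the median sample they held 0.817% and 0.115% of the reads. The basal-cell miRNA was thus the more abundant by read count in both strains. It lay above miR-203-3p in 400 of 402 C3H samples and in 497 of 497 C57Bl/6 samples, with a median difference of 2.83 and 2.85 on the log2 scale. Cloning bias between sequences was not tested, so this difference in reads need not be a difference in molecules. Libraries held between 206490 and 11814515 reads in total (median 1475030).

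The opposite strands were nearly absent. Reads of miR-203-5p appeared in 50 samples and summed to 108, against 2295335 for miR-203-3p. Reads of miR-205-3p appeared in 786 samples and summed to 9421, against 15177070 for miR-205-5p. One strand of each hairpin therefore made up almost all of its reads in plasma.

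The label of the pair, skin epithelium in the irradiated field, could not be checked in a cell-free fluid. Other epithelial miRNA were measured with them, among them the miR-200 family, known from many epithelia, and miR-184-3p, known from the cornea. The mean levels of the 10 other epithelial miRNA ran from 3.23 log2 CPM (miR-96-5p) to 13.08 (miR-200a-3p), and miR-184-3p stood at 13.52, against 13.00 for miR-205-5p and 10.19 for miR-203-3p. The tissue that released either miRNA was not tested here, and in plasma a release by more cells and a larger release per cell cannot be told apart.

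**Figure D1:**
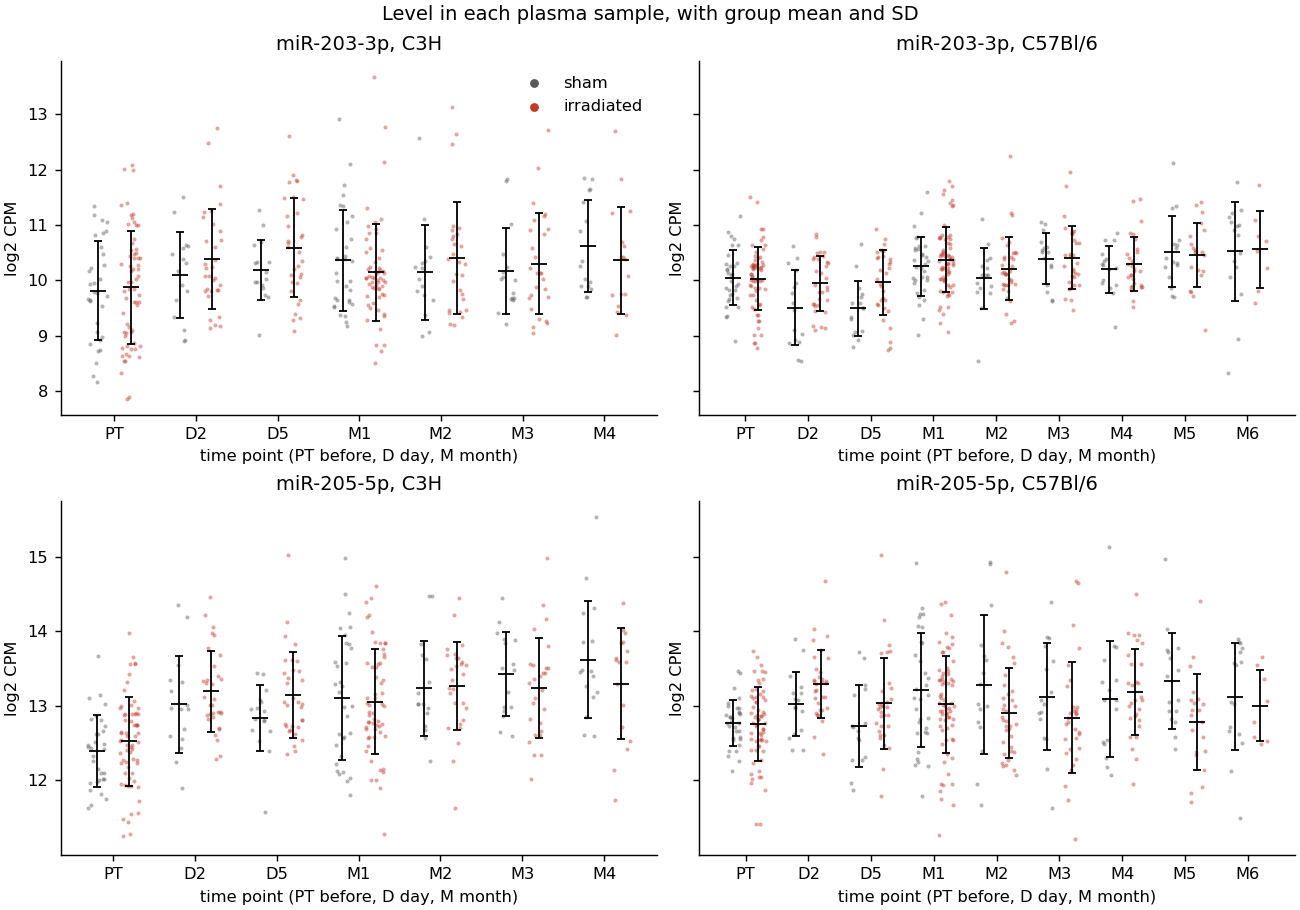
Level of miR-203-3p (top) and miR-205-5p (bottom) in each plasma sample, in log2 CPM, by time point, in sham (grey) and irradiated (red) mice of C3H (left) and C57Bl/6 (right), with group mean and SD. The sham and irradiated samples overlap at every time point, miR-205-5p lies above miR-203-3p, and C3H samples of miR-203-3p are the most spread.

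Neither miRNA passed the test at any single time point after irradiation. Across the 28 comparisons of irradiated with sham mice (14 time points of the 2 strains, for each miRNA), 0 were called by the quasi-likelihood test of edgeR, with p-values adjusted by the Benjamini-Hochberg method over the 483 miRNA. At an unadjusted p under 0.05 there were 4, beside a share of 14.4% over all miRNA in the same comparisons. The fitted differences ran from -0.55 to 0.59 on the log2 scale, and their 95% intervals reached from 1.95-fold lower to 2.10-fold higher. In C3H the share of all tested miRNA called was 4.97% at D2, 3.11% at D5, 3.31% at M1, 0.621% at M2, 2.07% at M3 and 0.414% at M4. In C57Bl/6 it was 6.63% at D2, 14.1% at D5, 3.73% at M1, 3.31% at M2, 1.66% at M3, 4.76% at M4, 3.52% at M5 and 0.414% at M6. Samples taken before irradiation, compared the same way, gave 0% in both strains.

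The differences nearest to the threshold had opposite directions early and late. In C3H at D5, miR-203-3p ranged from 9.09 to 12.61 log2 CPM with a median of 10.56 in 32 irradiated mice, and from 9.01 to 11.26 with a median of 10.08 in 16 sham mice. The ranges overlapped, with irradiated mice alone above 11.26. The difference was 0.59 ± 0.24 (SE), with an adjusted p of 0.243 by edgeR.

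In C57Bl/6 at D5, miR-203-3p ranged from 8.74 to 10.92 log2 CPM with a median of 10.07 in 32 irradiated mice, and from 8.80 to 10.66 with a median of 9.50 in 16 sham mice. Here the ranges were almost the same, and the difference of 0.49 ± 0.24 had an adjusted p of 0.17. For the keratinocyte differentiation miRNA, 4 of 6 differences in C3H and 6 of 8 in C57Bl/6 were above 0. For miR-205-5p, 2 of 6 and 2 of 8 were.

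At later times the lowest values belonged to miR-205-5p in C57Bl/6. At M2 it ranged from 12.07 to 14.79 log2 CPM with a median of 12.81 in 36 irradiated mice, and from 11.67 to 14.92 with a median of 13.15 in 16 sham mice. The ranges nested, with a difference of -0.52 ± 0.19 and an adjusted p of 0.0942 by edgeR. DESeq2 called this comparison, at -0.60 with an adjusted p of 0.0428, and it was the only one of the 28 that DESeq2 called, while limma-voom called 0. With edgeR it was also called with DESeq2's size factors (adjusted p 0.0466), a stricter filter on low counts (0.0412) and without libraries under 500000 reads (0.0422). With DESeq2 itself, these were the 4 of 14 alternatives to call it. Over all 14 the difference ran from -0.61 to -0.33, with adjusted p up to 0.918. At M5, in 21 irradiated and 16 sham mice, the difference was -0.55 ± 0.21 with an adjusted p of 0.114. From M2 on, the irradiated group fell from 36 to 8 mice at M6 in C57Bl/6. In C3H it fell from 28 to 17 at M4, while 16 sham mice of each strain stayed. The paper reports deaths of irradiated mice, so late comparisons set the irradiated mice still sampled against an undiminished sham group.

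Over all time points together, miR-205-5p in C57Bl/6 was the one of 4 combinations of miRNA and strain to pass. Its F test over the 8 time points had an adjusted p of 0.0085, and 25.3% of all tested miRNA passed that test in C57Bl/6. With the mouse as a random block the adjusted p was 0.062, with the mouse as a fixed block 0.173, and with limma-voom 0.0536, so the call was lost in each. The other combinations gave adjusted p of 0.549 for miR-203-3p in C57Bl/6, and 0.189 for miR-203-3p and 0.504 for miR-205-5p in C3H, where 15.5% of all tested miRNA passed. The strains were not shown to differ in the effect over their 6 shared time points, with adjusted p of 0.98 for miR-203-3p and 0.849 for miR-205-5p and a share of 4.35% over all miRNA. Nor were the sexes over D2, D5 and M1: adjusted p was 1 for both miRNA in C3H (0.414% called) and 0.902 for miR-203-3p and 0.548 for miR-205-5p in C57Bl/6 (5.38% called).

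**Figure D2:**
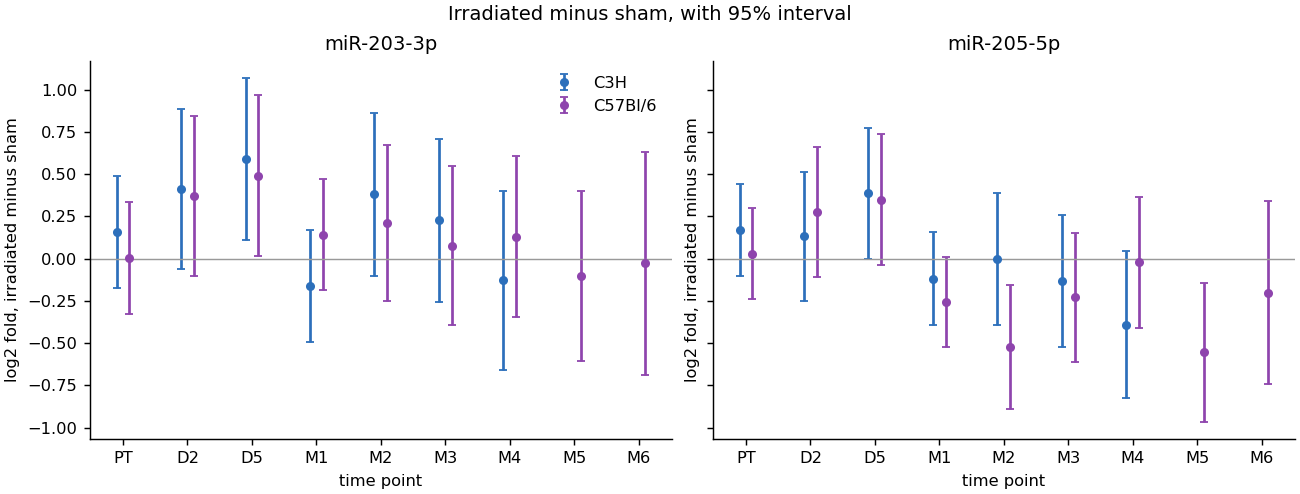
Irradiated minus sham difference of each miRNA at each time point, as a log2 fold with its 95% interval, in C3H (blue) and C57Bl/6 (purple). The points lie between -0.55 and 0.59, and none passed after adjustment.

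At D5 the values of miR-205-5p in C57Bl/6 lay apart by title code. This split was not among the planned comparisons, and its adjusted p do not cover the choice of code and time point. In G3 mice, miR-205-5p ranged from 12.47 to 15.02 log2 CPM with a median of 13.02 in 16 irradiated mice, and from 11.87 to 12.73 with a median of 12.29 in 8 sham mice. The median irradiated G3 mouse lay above the highest sham mouse, and the difference was 0.99 ± 0.28 with an adjusted p of 0.00356 by edgeR, in a comparison where 19.9% of all miRNA were called. In G1 mice, the same miRNA ranged from 11.80 to 14.15 with a median of 12.91 in 16 irradiated mice, and from 12.67 to 13.72 with a median of 13.18 in 8 sham mice.

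The G1 difference was -0.19 with an adjusted p of 0.751, and 6.83% of all miRNA were called there. The test of the difference between codes over D2, D5 and M1 gave an adjusted p of 0.0841 for miR-205-5p and 0.583 for miR-203-3p, with 12.8% of all miRNA called, so the codes were not shown to differ in the effect of irradiation. In C3H the same test gave an adjusted p of 1 for both, and 0% of all miRNA were called. For miR-203-3p at D5 the differences were 0.10 in G1, 0.83 in G3, 0.08 in G2 and 1.04 in G4. What distinguishes the codes is not given in the sources used here.

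The miRNA of other cell types did change after irradiation in the same samples. Of 5 leukocyte miRNA (miR-150-5p, miR-155-5p, miR-142a-3p, miR-142a-5p and miR-223-3p), 4 were lower at D2 in C3H with a list median of -1.10, and 4 were lower at D5 in C57Bl/6 with a list median of -1.12, against medians of -0.028 and -0.0029 over all miRNA. Over all time points, 8 of 30 tests of the leukocyte list were called lower in C3H, and in C57Bl/6 6 of 40 were called lower and 1 higher.

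Of 10 other epithelial miRNA, 1 of 60 tests was called higher and 1 lower in C3H, and 4 of 80 higher and 2 lower in C57Bl/6. The islet and neuroendocrine epithelial miRNA miR-375-3p rose at D2, by 1.16 ± 0.18 in C3H (adjusted p 1.86e-08) and 2.37 ± 0.19 in C57Bl/6 (adjusted p 7.38e-30), and in C57Bl/6 at D5 by 1.22 ± 0.18 (adjusted p 2.34e-09). At C57Bl/6 D5, miR-141-3p and miR-200a-3p were higher by 1.01 and 0.64, and miR-200c-3p was lower by -0.99. Of the remaining lists, the eye and lens list had 0 of 18 tests called in C3H and 2 of 24 lower in C57Bl/6, the stromal list 0 of 30 and 5 of 40 lower, the red blood cell list 1 of 24 higher and 0 of 32, and the skeletal muscle list 0 of 18 and 0 of 24. Over all 483 miRNA, 2.42% of such tests were called in C3H and 4.76% in C57Bl/6.

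After the first bleed, male C3H mice had more miR-203-3p than females. Averaged over the time points after PT with both treatments weighted equally, the level was 0.92 ± 0.09 higher on the log2 scale in males, which is 1.89-fold. This was the smallest p of the 483 miRNA (adjusted p 5.12e-20 by edgeR), among 14.9% called. These comparisons after PT were chosen after the values were seen.

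The difference was called both with and without irradiation. In sham C3H mice the difference was 0.83 ± 0.14 with an adjusted p of 1.46e-06 (5.38% called), and in irradiated C3H mice 1.01 ± 0.11 with an adjusted p of 1.11e-15 (9.32% called). By time point it was 0.97 at D2, 0.64 at D5, 0.91 at M1, 1.25 at M2, 0.76 at M3 and 0.99 at M4. On mean log2 CPM, males were higher in 9 of 9 cells of title code and time point, by 0.50 to 0.97.

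With 1 value per C3H mouse, the mean of its samples after PT, the sexes overlapped. The 48 females ranged from 9.08 to 11.21 log2 CPM with a median of 10.01, and the 48 males from 9.09 to 12.76 with a median of 10.68. Of the males, 42 lay above the female median. The difference, adjusted for time point, code and treatment, was 0.73, with a two-sided permutation p of 1e-05, the smallest that 100000 resamples can give (adjusted p 6e-05 over 12 such tests). In the 32 sham mice it was 0.63 with a permutation p of 0.0042 (adjusted p 0.0168).

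Before irradiation this difference was not called. At PT the male minus female difference in C3H was 0.18 ± 0.16 with an adjusted p of 0.503 (14.5% called), and the change from PT to the later time points was 0.74 ± 0.18 with an adjusted p of 0.00141 (10.6% called). With only mice of G3 and G4 in the fit, and so only time points up to M1, this change was 0.46 in C3H and was not called. Whether samples of one sex and time point were handled or sequenced together is not given in the sources used here, so at a single time point sex and handling cannot be told apart. Males were also from a younger age range than females, so none of these differences separates sex from age.

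In C57Bl/6 mice, miR-203-3p showed a smaller difference between the sexes that depended on the method. At PT the level in males was lower by -0.44 ± 0.16 with an adjusted p of 0.0395 (14.1% called), and with limma-voom the adjusted p was 0.0509. After PT it was higher in males by 0.22 ± 0.08 with an adjusted p of 0.0459 (18.8% called), but with 1 value per mouse by 0.04 with a permutation p of 0.566. In G3 mice alone, with time points up to M1 only, it was lower by -0.11. The change from PT was 0.66 ± 0.18 with an adjusted p of 0.00418 (11% called), and 0.44 and not called with only those mice.

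The strains differed in this respect: the male minus female difference of miR-203-3p after PT was larger in C3H than in C57Bl/6 by 0.70 ± 0.12, with an adjusted p of 1.88e-06, in a test that called 8.9% of all miRNA. For miR-205-5p no difference between the sexes after PT was called. It was 0.13 ± 0.08 in C3H (adjusted p 0.255) and 0.14 ± 0.07 in C57Bl/6 (adjusted p 0.147), with a strain difference of -0.01 and an adjusted p of 1. At PT it was -0.23 (adjusted p 0.254) and -0.17 (adjusted p 0.456).

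The sex difference of miR-205-5p nevertheless changed from one time point to the next. An F test of whether the sex difference was the same at every time point had an adjusted p of 0.00542 in C3H and 6.73e-08 in C57Bl/6, and for miR-203-3p 0.0099 and 0.0194, with 31.3% and 46.2% of all miRNA called. In C57Bl/6 the male minus female difference of miR-205-5p was 0.95 at M2, -0.65 at M3 and 0.66 at M4. Such swings in direction between neighbouring months stand beside the constant direction of miR-203-3p in C3H. From M2 to M3 the swing was not particular to miR-205-5p. In C57Bl/6, the mean of miR-200a-3p was 12.94 log2 CPM in females and 13.49 in males at M2, and 13.70 and 13.07 at M3. For miR-184-3p it was 13.12 and 14.29 at M2, and 14.25 and 12.93 at M3. At M4 males were not higher, with 13.53 and 13.49 for miR-200a-3p and 14.34 and 14.13 for miR-184-3p.

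Other epithelial miRNA were compared between the sexes too. Of the 10, miR-182-5p was higher and miR-375-3p lower in C3H males after PT, and the list median was 0.07, against -0.04 over all miRNA. At PT 4 of 10 were lower in C3H males, with a list median of -0.20, and 2 of 10 in C57Bl/6 males, with a list median of -0.28. The list median of the change of the sex difference from PT was 0.21 in C3H, with 3 of 10 higher, and 0.30 in C57Bl/6, with 1 higher, against -0.02 and -0.03 over all miRNA. Of the red blood cell miRNA, 1 of 4 was higher and 2 were lower in C3H males after PT.

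**Figure D3:**
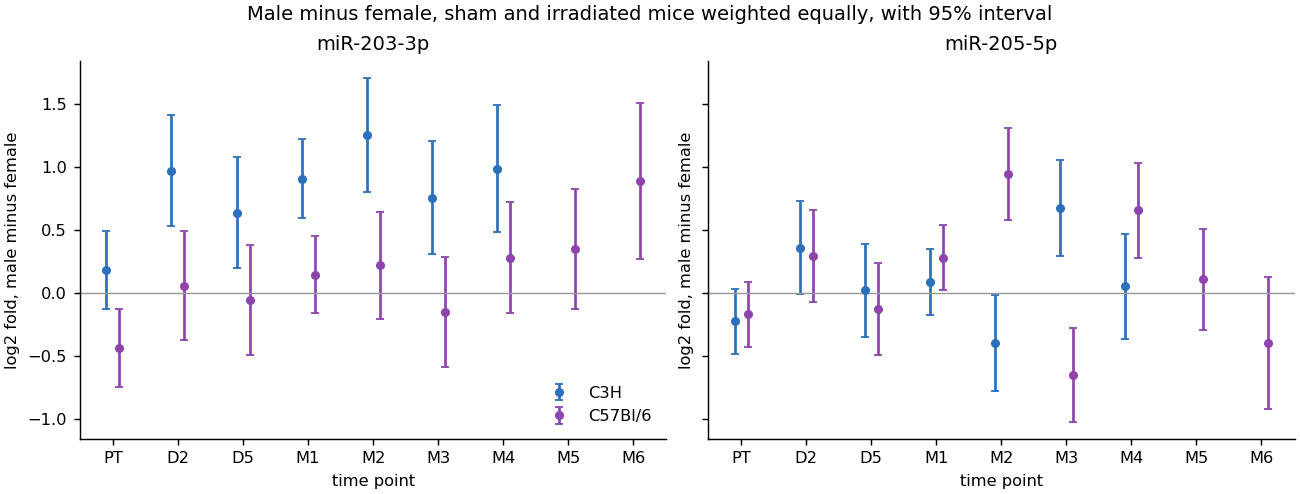
Male minus female difference of each miRNA at each time point, as a log2 fold with its 95% interval, with sham and irradiated mice weighted equally, in C3H (blue) and C57Bl/6 (purple). For miR-203-3p in C3H the points after PT lie between 0.64 and 1.25, whereas for miR-205-5p in C57Bl/6 they swing between -0.65 and 0.95.

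Before irradiation the strains had close mean levels of miR-203-3p, made up of opposite differences in the pairs of title codes. The pooled C57Bl/6 minus C3H difference at PT was -0.01 ± 0.12 by edgeR with an adjusted p of 0.941, where 50.7% of all miRNA were called. It depended on the method: 0.19 with limma-voom (adjusted p 0.161) and 0.25 with limma on quantile-normalized values (adjusted p 0.0503), not called in either. By title code, the level in C3H ranged from 7.86 to 10.49 with a median of 9.02 log2 CPM in G2, and from 9.21 to 12.08 with a median of 10.51 in G4. In C57Bl/6 it ranged from 9.003 to 11.41 with a median of 10.25 in G1, and from 8.77 to 11.51 with a median of 9.86 in G3.

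The medians of the 2 C3H codes stood apart, and those of the C57Bl/6 codes lay between them. Within C3H, G4 was 1.35 ± 0.16 higher than G2 with an adjusted p of 1.93e-15 (54.9% called), and within C57Bl/6 the G3 minus G1 difference was -0.46 ± 0.16 with an adjusted p of 0.0158 (31.5% called). Compared by strain, G1 was 1.02 ± 0.16 higher than G2 (adjusted p 1.39e-09, 51.3% called) and the G3 minus G4 difference was -0.78 ± 0.16 (adjusted p 6.43e-06, 37.7% called). The difference between these differences was 1.80 ± 0.22, with an adjusted p of 3.97e-14 (40.6% called). The comparisons between strains by code were chosen after the values were seen.

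For miR-205-5p the codes lay closer together. The G4 minus G2 difference was 0.01 (adjusted p 0.974), and G3 minus G1 was -0.31 (adjusted p 0.0614). The pooled strain difference was 0.26 ± 0.10 higher in C57Bl/6 with an adjusted p of 0.0178, made of 0.41 for G1 against G2 (adjusted p 0.00535) and 0.09 for G3 against G4 (adjusted p 0.644). The test of the difference between these had an adjusted p of 0.171.

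The spread between samples was widest for miR-203-3p in C3H. Within groups of strain, treatment and time point, the pooled SD of miR-203-3p was 0.907 in C3H and 0.571 in C57Bl/6, and that of miR-205-5p was 0.636 and 0.616. Title code and sex held 33.3% of the within-group variance of miR-203-3p in C3H and 19.0% in C57Bl/6, and 20.5% and 22.4% for miR-205-5p, beside a median of 15.3% and 15.7% over all tested miRNA.

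The 2 miRNA rose and fell together before irradiation in C57Bl/6 mice but not detectably in C3H mice. In 96 C57Bl/6 mice at PT, Pearson's r between their log2 CPM was 0.709 (permutation p 1e-05, the smallest that 100000 resamples can give, adjusted p 3e-05 over 6 relations) and Spearman's rho was 0.696 (adjusted p 6e-05). Without the 2 mice farthest from the median of miR-203-3p, r was 0.686. Within codes r was 0.604 in G1 and 0.689 in G3.

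In 96 C3H mice, r was 0.088 (permutation p 0.393, adjusted p 0.471) and rho 0.059 (permutation p 0.573, adjusted p 0.687), and r was 0.241 in G2 and 0.027 in G4. Taken within codes, r was 0.134 in C3H and 0.647 in C57Bl/6, a difference of 0.513 with a permutation p of 0.00296. This test of the difference was chosen after the values were seen. Both values of a mouse come from 1 library, so they share its depth and normalization.

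**Figure D4:**
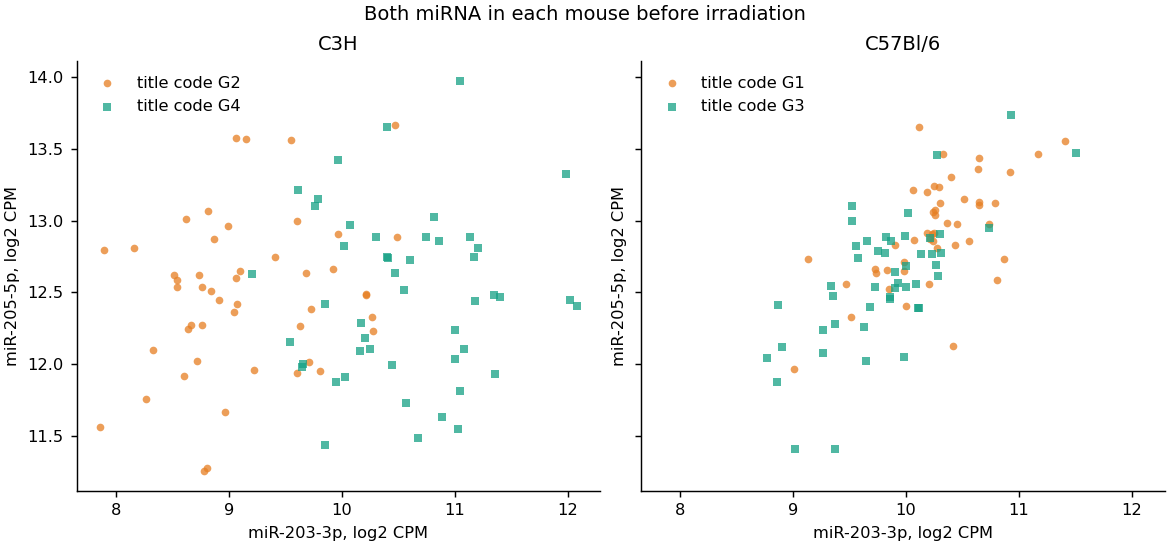
Level of miR-203-3p (x axis) against miR-205-5p (y axis), both in log2 CPM, in each mouse before irradiation, by strain and title code. The C3H codes G2 and G4 separate along miR-203-3p with medians of 9.02 and 10.51, and the C57Bl/6 mice follow a diagonal with r = 0.709.

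In sham mice, which were bled again and again without irradiation, miR-205-5p rose over time. Their level at PT was compared with that at each later time point, and all these comparisons share the PT samples. In C3H it ranged from 11.63 to 13.67 log2 CPM with a median of 12.43 at PT (32 mice) and from 12.60 to 15.53 with a median of 13.46 at M4 (16 mice). The lowest M4 mouse lay above the PT median, and 15 of 16 mice were above their own PT level.

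The rise at M4 was 1.38 ± 0.19 on the log2 scale with an adjusted p of 2.1e-11 by edgeR (38.5% called). It was 0.69 at D2 (adjusted p 0.00215, 25.7% called), 0.42 at D5 (adjusted p 0.119, 17.4% called), 0.87 at M1 (adjusted p 9.84e-07, 32.1% called), 0.90 at M2 (adjusted p 4.92e-05, 19.5% called) and 1.06 at M3 (adjusted p 6.31e-07, 23.8% called). The test over all times passed with an adjusted p of 1.11e-10, among 46% of all miRNA. In C3H mice of G4, followed to M1, the changes were 0.32, 0.26 and 0.41 at D2, D5 and M1, and in G2 they ran from 0.56 to 1.38.

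For miR-203-3p in the same C3H sham mice, the changes were 0.62 at M1 (adjusted p 0.00658) and 0.78 at M4 (adjusted p 0.00322), and between 0.21 and 0.39 and not called at the other times. The test over all times had an adjusted p of 0.0269. From M2 on all these mice were G2, whereas the PT samples held both codes. The pooled changes from M2 on thus mix time with code. With only G1 and G2 in the fit, 6 of 6 times were called higher by edgeR. Among them were 1.05 at M2 (adjusted p 0.000264) and 1.02 at M3 (adjusted p 0.000337). With the mouse as a fixed block 5 of 6 were called, and with only G3 and G4 0 of 3. Here the values of the codes parted: in G2, whose PT level was low, the changes ran from 0.73 to 1.45, and in G4 from -0.40 to 0.39, with an adjusted p of 0.0515 for the difference (22.2% called), which was thus not shown. The same test gave 0.163 for miR-205-5p.

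In C57Bl/6 sham mice, miR-205-5p was called higher from M1 on, by 0.61 at M1, 0.76 at M2, 0.48 at M3, 0.52 at M4, 0.68 at M5 and 0.47 at M6, with 24.8%, 16.1%, 32.3%, 29.6%, 27.7% and 33.3% of all miRNA called. At D2 and D5 it changed by 0.28 and 0.03 and was not called (21.5% and 30% called). These calls were the less firm: with the mouse as a fixed block 1 of the 6 passed, with quantile-normalized values 0 and with only mice of G1 and G2 in the fit 0, and the test over all times (adjusted p 0.000479, 62.9% called) had an adjusted p of 0.151 with the fixed block. From M2 on all these mice were G1. At PT the median over the 48 G1 mice, sham and irradiated, was 12.92, against 12.59 over the 48 of G3. With only G1 and G2 in the fit the changes at M3 and M6 were 0.25 and 0.23.

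For miR-203-3p in C57Bl/6 sham mice, the change was 0.60 at M6 (adjusted p 0.0342), and the call did not hold with either mouse block. At D2 and D5 the values were -0.48 (adjusted p 0.161) and -0.55 (adjusted p 0.0708), so the test over all times (adjusted p 0.000173) covers values of both signs. Lower levels were called at D2 with the mouse as a fixed block (-0.67, adjusted p 0.0123) and with only G1 and G2 (-1.18, adjusted p 0.00317), while with only G3 and G4 the change was 0.085 (adjusted p 0.921). At D5 they were called with DESeq2's size factors (-0.65, adjusted p 0.0312), quantile-normalized values (-0.62, adjusted p 0.0215) and only G1 and G2 (-0.88, adjusted p 0.0287). The test of a difference between G1 and G3 gave an adjusted p of 0.0677 for miR-203-3p and 0.197 for miR-205-5p (20.5% called).

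Other miRNA moved in the same sham samples. Of the 10 other epithelial miRNA, 9 were higher at M4 in C3H with a list median of 1.45, against -0.07 over all miRNA, and 9 were higher at M6 in C57Bl/6 with a list median of 1.12, against 0.02. Summed, they ranged from 12.43 to 14.83 log2 CPM at PT and from 14.20 to 16.40 at M4 in C3H. The red blood cell list fell: 4 of 4 were lower at M4 in C3H and 3 of 4 at M6 in C57Bl/6, and its summed level ranged from 18.02 to 20.33 at PT and from 17.53 to 19.55 at M4 in C3H.

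Of the eye and lens miRNA, 2 of 3 were lower in both strains at these last time points, although miR-184-3p was not among them. The part of these other cell types, of age, of repeated bleeding and of the site of the bleed in the rise of miR-205-5p was not tested. Over all time points in C3H and C57Bl/6, 43 of 60 and 53 of 80 tests of the epithelial list were called higher, and 0 and 7 lower, while 26.2% and 26.9% of such tests over all miRNA were called in either direction. The stromal list had 10 higher and 10 lower of 30 in C3H and 16 higher and 11 lower of 40 in C57Bl/6, the leukocyte list 11 lower of 30, and 14 higher and 8 lower of 40, and the muscle list 5 higher of 18, and 3 higher and 1 lower of 24.

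**Figure D5:**
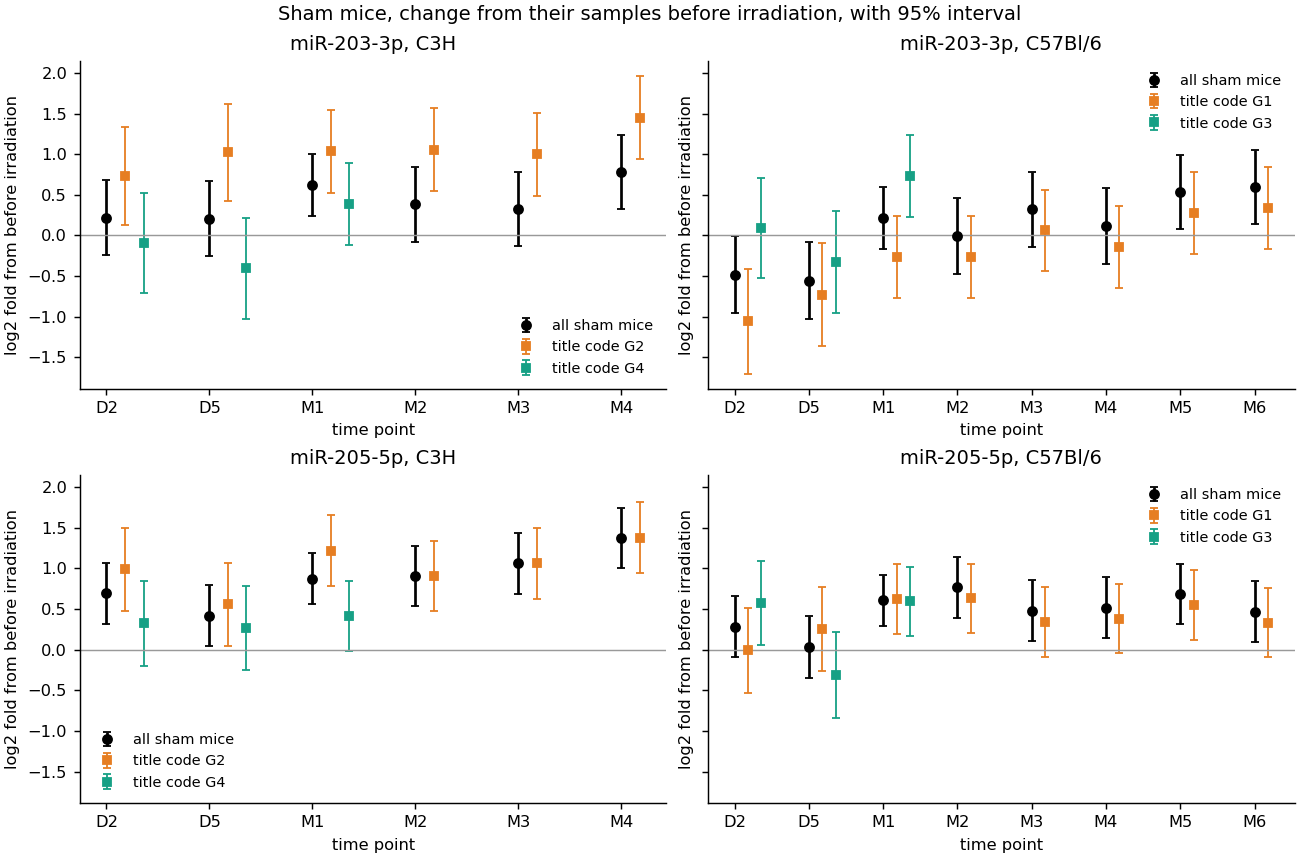
Change of each miRNA in sham mice from their samples before irradiation, as a log2 fold with its 95% interval, by time point and strain, for all sham mice (black) and for each title code (orange and green). In C3H, miR-205-5p reaches 1.38 at M4, and the changes of miR-203-3p in G2 (0.73 to 1.45) lie above those in G4.

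The miRNA whose levels followed miR-205-5p most closely were epithelial. Spearman's correlation over the 899 samples, with group means removed, was 0.61 for miR-200a-3p, 0.60 for miR-182-5p, 0.59 for miR-183-5p, 0.58 for miR-200b-3p and 0.57 for miR-429-3p, against a median of -0.0045 over all miRNA. They are the top 5 by this measure, and their sequences are shown so that their seeds can be compared. The genes of the miR-200 family members lie on chromosome 4 and those of miR-182 and miR-183 on chromosome 6.
miR-200a-3p: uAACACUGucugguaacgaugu
miR-200b-3p: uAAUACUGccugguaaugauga
miR-429-3p: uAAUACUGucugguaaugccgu
miR-182-5p: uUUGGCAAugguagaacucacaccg
miR-183-5p: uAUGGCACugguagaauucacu
The capitals again mark bases 2 to 8. The seed of miR-200b-3p and miR-429-3p is the same and belongs to miR-200c-3p too, and miR-200a-3p shares its seed with miR-141-3p. None of these seeds is that of miR-205-5p.

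For miR-203-3p the closest miRNA were less close: 0.37 for miR-101a-3p, 0.37 for miR-210-3p, 0.36 for miR-429-3p, 0.36 for miR-34a-5p and 0.35 for miR-30a-5p. With miR-205-5p it was 0.28, as 0.15 in C3H and 0.41 in C57Bl/6. With title code and sex also removed, the 5 values were 0.17, 0.24, 0.29, 0.19 and 0.24, and that with miR-205-5p was 0.32. With miR-200a-3p and miR-429-3p, the correlation of miR-203-3p was 0.60 and 0.55 in C57Bl/6 and 0.15 and 0.20 in C3H. Over the 10 other epithelial miRNA the median correlation was 0.55 with miR-205-5p and 0.12 with miR-203-3p, and over the 5 leukocyte miRNA -0.34 and -0.14. With title code and sex also removed, the epithelial medians were 0.63 and 0.13. The samples share mice, libraries and depth, so these correlations are a description.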

How the data were processed

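Small RNA of plasma was sequenced by the authors after samples with hemolysis were left out. The authors deposited raw read counts per mature miRNA, assigned with a BaseSpace small RNA application. The submitters' processing notes name mm10, and a miRBase release is not given in the sources used here. The counts were analysed with edgeR 4.0.16, with limma 3.58.1 and DESeq2 1.42.0 as alternatives, under R 4.3.3, and permutation tests ran in scipy 1.17.1. Strain, treatment, time point and sex came from the labels, and mouse and code from the titles. The 483 miRNA kept by filterByExpr, with 99.99% of reads, were scaled by TMM. The quasi-likelihood fit took all 899 samples, with 32 group means and 867 residual degrees of freedom. Models with sex or title code in the groups gave those tests. Levels are log2 CPM with a prior count of 2, SE are of fitted log2 fold changes, and p-values were adjusted by the Benjamini-Hochberg method over all tested miRNA of a comparison, at a threshold of 0.05. Counts per sample run from 206490 to 11814515, and the 95% intervals come from the fit, so they include the spread between samples.

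Mice were bled repeatedly. After group means were removed, samples of the same mouse, paired by the number in the titles, had a mean correlation of 0.082 over 99 abundant miRNA (1962 pairs), against -0.0015 for other mice. The value for the same mouse was 0.125 for miR-203-3p and 0.041 for miR-205-5p, against -0.0034 and -0.0025 for other mice. Fits with the mouse as a replicate block were therefore among the alternatives. The members and marker lists (other epithelium, eye surface and lens, stroma, red blood cells, leukocytes, skeletal muscle) were chosen with earlier results of these data known. The named miRNA are the 2 members, their opposite strands, the 5 most correlated with each and the listed miRNA that the text turns on. In counts simulated for C57Bl/6 at month 2 (479 miRNA tested), edgeR recovered 69.4% of 108 changes of 2-fold and 32.6% of 92 of 1.5-fold, with 3.67% of calls false. The changed share was far above the 3.31% called in the real comparison, and the counts held no mouse, code or sex structure. Recovery in the real data may thus be lower. Alternatives were other tools, scaling and filters, covariates, blocks and subsets of samples. Survival times were not analysed here.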

Additional observations from a re-analysis of the deposited data

Results flagged for a closer look

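These differences between groups were singled out, each because the effect of a contrast differed between strains, codes, sexes or time points by its own test, with edgeR's adjusted p. The C57Bl/6 minus C3H difference of miR-203-3p before irradiation differed between the code pairs G1 with G2 and G3 with G4 (adjusted p 3.97e-14). The male minus female difference differed between time points for miR-203-3p in C3H (0.0099) and C57Bl/6 (0.0194) and for miR-205-5p in C3H (0.00542) and C57Bl/6 (6.73e-08). That of miR-203-3p differed between the time before irradiation and the time points after it in C3H (0.00141) and C57Bl/6 (0.00418). Averaged over the later time points, it differed between the strains (1.88e-06). The tests after the first bleed and by code pair were chosen after the values were seen, and their causes were not tested.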

How the results depend on the processing

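The changes of sham mice at single time points were recomputed too, but are left out of the following count. Their changed calls and signs are given in part below. Of 790 values of 66 other comparisons of the 2 miRNA recomputed under alternatives, 694 kept their direction and their side of the threshold. Another 26 kept only the direction and were no longer called, 8 became called and 62 changed sign. Of these values, 5 of the irradiated minus sham difference were called, with a range of -0.61 to 0.96. The C3H male minus female difference of miR-203-3p after the first bleed and its excess over C57Bl/6 were called in 9 of 9 alternatives each. Over all miRNA, the 14 irradiated minus sham comparisons gave 254 calls, against 756 with no filter on low counts and 132 with the mouse as a fixed replicate block. With other tools and scalings the median of all miRNA moved by over 0.1 in sham comparisons, at C3H M4 with DESeq2's size factors (0.14) and limma-voom (-0.11) and at C57Bl/6 M1, M3, M4 and M6 with limma-voom (-0.14, -0.10, -0.14 and -0.18). It also moved there with the mouse as a block (down to -0.17, at C57Bl/6 M6), with no filter (0.11, at C3H M3) and with only G1 and G2 (up to 0.16, at C3H D2). In counts simulated for C57Bl/6 at M2, with far more miRNA changed than were called in the real comparison, 32.6% of 1.5-fold changes were recovered. Results within 1 sex or code rest on fewer mice. The fits with only G1 and G2 or only G3 and G4, and a mouse block for the sex change, were chosen after seeing the data. Fits with only G3 and G4 hold no time point after M1. No leave-one-out fit was needed, since every group holds 8 or more samples. The causes of the changes below were not tested.

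Most changes of sign were in values near 0 that were not called. For miR-203-3p, the irradiated minus sham difference in C57Bl/6 at M6 became 0.036 with DESeq2 and with its size factors in edgeR, 0.046 with limma-voom, 0.016 with only the groups compared, 0.0082 with only G1 and G2 and 0.11 with quantile-normalized values. At PT it became -0.016 with DESeq2 and with its size factors, -0.032 with limma-voom, -0.020 with no filter, -0.017 with only the groups compared, -0.16 with only G1 and G2 and -0.059 without libraries under 500000 reads. At C57Bl/6 M3 it was -0.048 without the 4 mice with no PT sample, and at C3H PT -0.11 with only G1 and G2. For miR-205-5p in C3H at M2, it became 0.090 with DESeq2 and with its size factors, 0.034 with limma-voom, 0.085 with no filter, 0.070 with the stricter filter, 0.13 with only the groups compared, 0.072 with only G1 and G2, 0.054 with quantile-normalized values and 0.020 without libraries under 500000 reads. At C57Bl/6 M4 it became 0.039 with DESeq2 and with its size factors, 0.10 with limma-voom, 0.0082 with only the groups compared, 0.0098 with only G1 and G2, 0.17 with quantile-normalized values, 0.045 with code and sex within each time point and 0.033 without those 4 mice. At C57Bl/6 PT it became -0.021 with limma-voom, -0.014 with only G1 and G2 and -0.076 with quantile-normalized values. At C3H M1 it became 0.026 with only G3 and G4.

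The strain difference of miR-203-3p at PT became 0.033 with DESeq2 and with its size factors, 0.19 with limma-voom, 0.036 with no filter, 0.0043 with the stricter filter and 0.25 with quantile-normalized values. It became 1.11 (called) with only G1 and G2 and -0.82 (called) with only G3 and G4, where that of miR-205-5p was 0.051 and not called. The strain difference of the sex difference of miR-205-5p became 0.021 with DESeq2's size factors, 0.020 with limma-voom, 0.0055 with no filter, 0.030 with the stricter filter, 0.059 with only G1 and G2 and 0.016 with quantile-normalized values. The change of miR-205-5p in C57Bl/6 sham mice at D5 became -0.063 with DESeq2's size factors, -0.036 with limma-voom, -0.0023 with no filter, -0.25 with only G3 and G4 and -0.091 with quantile-normalized values, and at D2 -0.13 with only G1 and G2. Changes of miR-203-3p in sham mice became, with only G1 and G2, -0.33, -0.025 and -0.25 at C57Bl/6 M1, M3 and M4, and with only G3 and G4, -0.073 and -0.38 at C3H D2 and D5 and 0.085 at C57Bl/6 D2.

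Calls were gained for miR-205-5p irradiated minus sham in C57Bl/6 at M2, as -0.60 with DESeq2 and with its size factors, -0.56 with the stricter filter and -0.59 without libraries under 500000 reads, and at D5, as 0.86 with only G3 and G4, where only G1 and G2 gave -0.11. The F test of miR-205-5p over the C57Bl/6 irradiated times had an adjusted p of 0.054 with limma-voom and 0.111 with only G1 and G2. Its F test over C57Bl/6 sham times had 0.187 with only G1 and G2 and 0.194 with quantile-normalized values, and over C3H sham times 0.485 with only G3 and G4, where that of miR-203-3p had 0.471. For the sexes, the difference of miR-203-3p at C57Bl/6 PT was no longer called at -0.43 with limma-voom, -0.46 with only G1 and G2, -0.56 with only G3 and G4 and -0.41 without libraries under 500000 reads. After PT it was no longer called at 0.217 with no filter, 0.19 with the stricter filter, 0.20 with quantile-normalized values and 0.21 without libraries under 500000 reads, and was -0.11 with only G3 and G4. For miR-205-5p in C3H, the sex difference at PT was 0.0043 with only G1 and G2 and -0.48 (called) with only G3 and G4, and after PT 0.23 (called) and -0.21. With only G3 and G4, the change of the sex difference of miR-203-3p from PT was 0.46 in C3H and 0.44 in C57Bl/6, not called in either, and the F test of the sex difference over time had an adjusted p of 0.416 and 0.222 for miR-203-3p and 0.0798 and 0.298 for miR-205-5p. That of miR-203-3p in C3H had 0.0961 with quantile-normalized values.

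With the mouse as a fixed replicate block, the irradiated minus sham difference became 0.041 for miR-203-3p at C57Bl/6 M6 and 0.15 for miR-205-5p at M4, and for miR-205-5p in C57Bl/6 the F test had an adjusted p of 0.173 over irradiated times and 0.151 over sham times. With the mouse as a random replicate block (consensus correlation 0.0434), those differences became 0.044 and 0.11, the PT values -0.029 for miR-203-3p and -0.024 for miR-205-5p in C57Bl/6, and 0.042 for miR-205-5p at C3H M2. The strain difference of miR-203-3p at PT became 0.19, that of the sex difference of miR-205-5p 0.0069 and the sham change of miR-205-5p at C57Bl/6 D5 -0.030. The irradiation F test of miR-205-5p in C57Bl/6 had an adjusted p of 0.062, and the sex difference of miR-203-3p in C57Bl/6 after PT was 0.22 and no longer called. In sham mice with the fixed block, miR-203-3p in C3H was called at 5 of 6 times, against 2 without it (6 with only G1 and G2), miR-205-5p in C3H at 6 against 5, miR-205-5p in C57Bl/6 at 1 of 8 against 6, and miR-203-3p in C57Bl/6 at 1 of 8, lower, against 1, higher.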
